A study of Homo sapiens with 6 samples.

Results

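Cholesterol moves between the membranes of a cell largely on dedicated carrier proteins, and the genes described here encode 9 proteins of that system or close to it. They are GRAMD1A, GRAMD1B, GRAMD1C, GRAMD2B, NPC1, NPC2, STARD3, OSBP and SOAT1, taken by symbol from a table of 61155 gene symbols, and all 9 passed the filter on low counts. They were grouped by name with the results of the present contrast in view, so the values below describe these genes and no p-value is given for them. The cells were MDA-MB-231, a triple-negative human breast carcinoma line, and their RNA gave 3 control libraries and 3 from cells depleted of VASP, an actin regulator of the leading edge and focal adhesions. The titles call the controls plko and the knockdown shVASP, which are names of a short hairpin vector and hairpin, whereas the other labels give siRNA for both groups, a negative control and one against VASP, brought in transiently with a Lipofectamine reagent. Which reagent was used is not settled by the labels, and cells were harvested after 48 hours. The labels name no clone and no separate cultures, and the 3 control columns all carry the number of a single control sample with a further number added. The controls may thus be repeats of 1 culture, and n = 3, with its SDs, standard errors and intervals, then measures technical spread only. The test calls and adjusted p-values below rest on the same spread and carry the same limit.

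Cholesterol taken up in lipoproteins is freed in the lysosome, where the soluble protein NPC2 passes it to NPC1 in the lysosomal membrane for export. The GRAMD1 proteins, also called Asters, are anchored in the endoplasmic reticulum, reach the plasma membrane through their GRAM domain and carry accessible cholesterol inwards. STARD3 works at contacts of late endosomes with the endoplasmic reticulum, OSBP exchanges cholesterol for the lipid PI4P at contacts with the Golgi, and SOAT1 esterifies cholesterol in the endoplasmic reticulum for storage.

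VASP mRNA stood at 4544, 5036 and 4708 counts in controls but at 396, 379 and 360 after knockdown, so every library matched its label. Libraries held 28856610 to 30055503 counts, and mitochondrial genes took 13.7% to 15.1% of them in control and 12% to 14.6% in knockdown. The line's mesenchymal markers VIM, CD44, AXL and CAV1 stood at 338 CPM (the count relative to its library's total, scaled by the TMM method) or more in every library, CDH1 and PGR at 3 counts or fewer, ESR1 at 0.828 CPM or less and EPCAM at 4.77 to 6.64 CPM. Of the leukocyte and endothelial markers PTPRC, CD3E, VWF and CDH5 had 7 counts or fewer in any library. CD14 had 1.46 to 2.97 CPM and PECAM1, which passed the test downward, 2.82 CPM in control and 2.05 in knockdown on average; their part in the results was not tested.

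Of the 9 genes 2 passed the edgeR test at an adjusted p under 0.05, GRAMD1B upward and GRAMD1A downward. In the same test 37.2% of the 16633 genes tested passed, 18.9% upward and 18.3% downward, so nothing is read from the count of 2 of 9, or 22.2%. The median log2 fold change of the 9 was -0.02, against -0.01 over all genes tested. Groups did not overlap for 3 of the 9 (GRAMD1A, GRAMD1B and SOAT1), where 47.6% of all genes tested showed no overlap. The lysosomal pair, STARD3, OSBP, GRAMD1C and GRAMD2B had overlapping groups, and the 7 genes that did not pass had log2 fold changes from -0.12 to 0.11. In RNA from whole cultures, a change in the share of cells that express a gene and a change in RNA per cell cannot be told apart.

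**Figure D1:**
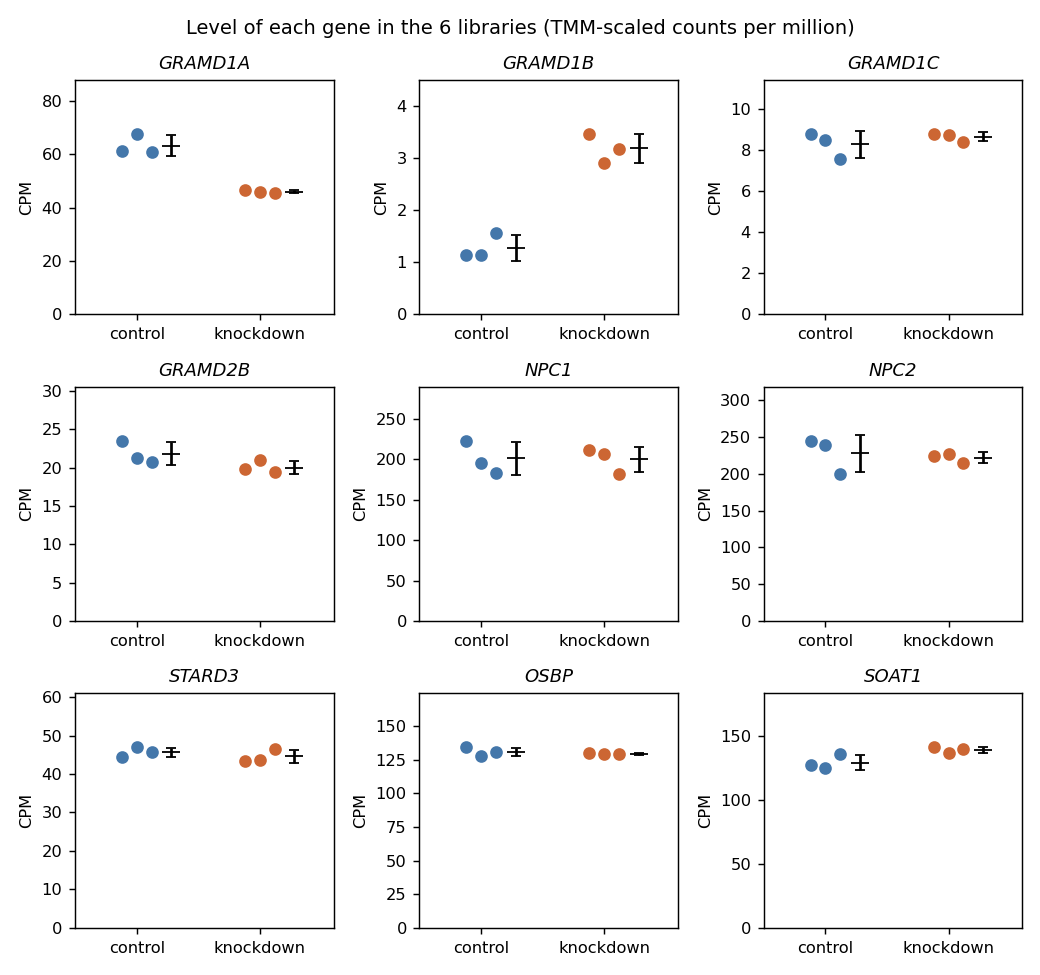
CPM (TMM-scaled, vertical axis, from 0, a scale of its own for each gene) in the 3 control (blue) and 3 knockdown (orange) libraries, with the mean of each group as a dash and its SD as error bars beside the points. GRAMD1B stands above every control in all knockdown libraries and GRAMD1A below; the other panels overlap, apart from SOAT1, where the lowest knockdown and the highest control library lie side by side.

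GRAMD1B (ENSG00000023171, GRCh38 chromosome 11, 123358428 to 123627774, plus strand) had the fewest counts of the 9. Counts of 33, 33 and 45 in the controls stood against 106, 86 and 93 after knockdown. Scaled by TMM, these are 1.13, 1.14 and 1.56 CPM in control and 3.46, 2.91 and 3.17 CPM in knockdown. Every knockdown library was above every control library, and control library 3 stood above the other controls. The mean went from 1.27 ± 0.243 to 3.18 ± 0.274 CPM (SD, n = 3 each), 2.49-fold (log2 fold change 1.32, SE 0.17, 95% interval 0.96 to 1.67). By size of increase GRAMD1B ranked 26 among the genes tested. The controls varied by 19.1% (coefficient of variation), against 2.27% to 10.9% for the other 8 genes. No exon base of GRAMD1B is shared with another symbol, and the lowest control count, 33, stands above the floor of 3 counts.

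GRAMD1A (ENSG00000089351, chromosome 19, 34994784 to 35026471, plus strand) is the abundant GRAMD1 gene of these cells, and it went the other way. Its levels were 61.2, 67.6 and 60.7 CPM in control and 46.6, 46.0 and 45.3 CPM in knockdown. The knockdown libraries lay close together and below every control. The mean fell from 63.2 ± 3.85 to 46.0 ± 0.621 CPM (SD, n = 3 each), 1.37-fold (log2 fold change -0.46, SE 0.05, 95% interval -0.57 to -0.35), and 12.6% of genes tested had a larger change in either direction. GRAMD1A is rich in G and C, with 62.8% in its longest transcript, and the top decile of genes by GC content had a median log2 fold change of -0.23. With offsets for GC content and length the log2 fold change of GRAMD1A was -0.27 (SE 0.05), 1.2-fold lower, and that of GRAMD1B, with 50.2% GC, was 1.38 (SE 0.17). Both also passed in the corrected fit, in which 29.7% of genes did. Of the exon bases of GRAMD1A 2.09% are shared with AC020907.3 and AC020907.4 on the opposite strand, and fragments there were not counted.

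GRAMD1C (ENSG00000178075, chromosome 3, 113828182 to 113947174, plus strand), the third Aster, showed neither pattern. It stood at 8.77, 8.48 and 7.54 CPM in control and at 8.77, 8.73 and 8.38 CPM in knockdown. The ranges overlapped, and the change was 1.04-fold with a 95% interval of 0.915-fold to 1.19-fold, so increases like that of GRAMD1B and decreases like that of GRAMD1A (0.728-fold) lie outside it. Corrected for GC content and length, its log2 fold change was -0.04.

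Levels of different genes can be compared only per length, here as RPKM (CPM per kilobase of merged exons). GRAMD1A had 10.6 ± 0.647 RPKM in control (SD, n = 3), GRAMD1C 1.11 ± 0.0869 and GRAMD1B 0.0853 ± 0.0163. GRAMD1A thus exceeded GRAMD1B by 128 ± 26.6 times per length in control and by 36.6 ± 2.96 times in knockdown (n = 3 each). GRAMD1B made up 0.655%, 0.605% and 0.918% of the RPKM sum of the 3 genes in the controls and 2.5%, 2.14% and 2.36% of it after knockdown. The share of GRAMD1C was 9.39 ± 0.702% in control and 12.7 ± 0.168% in knockdown, and that of GRAMD1A was 89.9 ± 0.646% and 84.9 ± 0.168%. In absolute terms the gain of GRAMD1B was small: it added 0.127 RPKM, while GRAMD1A fell by 2.90 RPKM. The sum of the 3 was 11.8 ± 0.672 RPKM in control and 9.11 ± 0.141 RPKM in knockdown. None of these levels, shares and sums is corrected for GC content, and with that correction the fall of GRAMD1A was 1.2-fold (1.37-fold before).

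**Figure D2:**
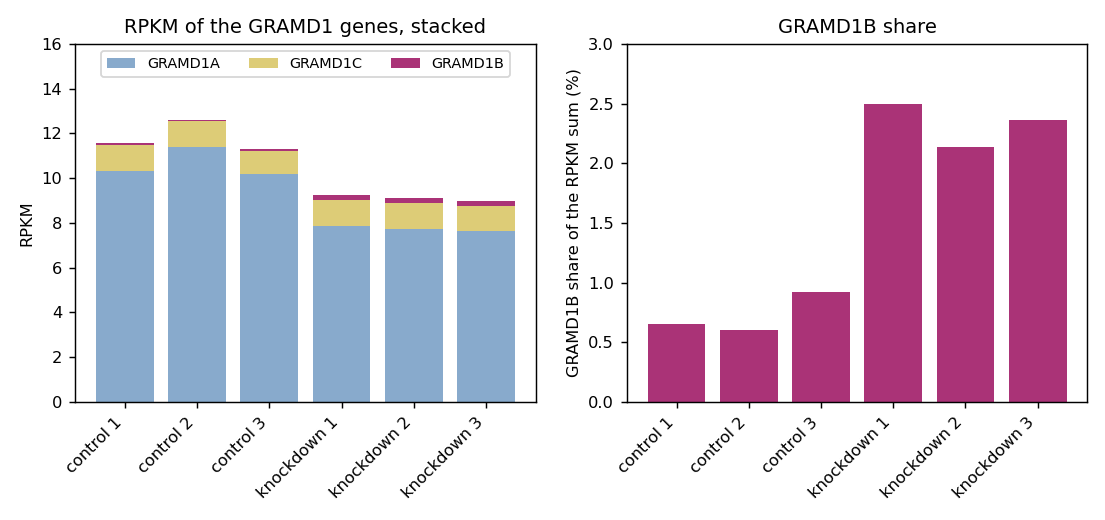
Left, RPKM of GRAMD1A, GRAMD1C and GRAMD1B stacked in each library. Right, GRAMD1B as a percentage of that sum, 0.605% to 0.918% in the control libraries and 2.14% to 2.5% in the knockdown libraries; GRAMD1A makes up most of every left-hand bar.

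GRAMD2B (ENSG00000155324, chromosome 5, 126360132 to 126496494, plus strand) carries a GRAM domain and is a relative of the Asters. It stood at 23.5, 21.2 and 20.7 CPM in control and 19.8, 21.0 and 19.4 CPM in knockdown. Knockdown library 2 lay above the lowest control, and the gene did not pass (log2 fold change -0.12, SE 0.07, 95% interval -0.27 to 0.02). With the GC and length correction the value was -0.17 (SE 0.07) and still did not pass. Its count leaves out fragments on 10.5% of its exon bases, which are shared with AC093535.1 on the opposite strand and AC093535.2 on the same strand.

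NPC2 (ENSG00000119655, chromosome 14, 74476192 to 74494177, minus strand), the lysosomal lumen carrier, had 245, 239 and 200 CPM in control and 224, 227 and 214 CPM in knockdown. The knockdown values lay within the spread of the controls, in which library 3 was low (log2 fold change -0.04, SE 0.06, 95% interval -0.17 to 0.09). NPC1 (ENSG00000141458, chromosome 18, 23506184 to 23586506, minus strand), the membrane protein that takes cholesterol from it, had 223, 196 and 183 CPM in control and 211, 206 and 182 CPM in knockdown. Its groups overlapped over almost their whole range (log2 fold change -0.01, SE 0.07, 95% interval -0.16 to 0.15). Per length NPC2 exceeded NPC1 by 4.01 ± 0.258 times in control and 3.92 ± 0.211 times in knockdown (SD, n = 3 each). Part of their exons is not counted, 6.37% of NPC2, shared with ISCA2 and MIR4709, and 6.38% of NPC1, shared with RMC1.

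Of the 2 proteins at contact sites, STARD3 (ENSG00000131748, chromosome 17, 39637090 to 39664201, plus strand) had 44.5, 46.9 and 45.6 CPM in control and 43.5, 43.7 and 46.4 CPM in knockdown. The groups overlapped (log2 fold change -0.04, SE 0.05, 95% interval -0.15 to 0.08). Correction for GC and length gave 0.10 (SE 0.05), of opposite sign, which did not pass. OSBP (ENSG00000110048, chromosome 11, 59574398 to 59615774, minus strand) was the most even of the 9, with 134, 128 and 131 CPM in control and 130, 129 and 129 CPM in knockdown. Its interval was the narrowest, 0.925-fold to 1.05-fold around a fold of 0.988.

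SOAT1 (ENSG00000057252, chromosome 1, 179293714 to 179358680, plus strand), the esterifying enzyme, had 127, 125 and 136 CPM in control and 141, 137 and 140 CPM in knockdown. The groups did not overlap, but the gap between them was small against the spread of the controls, and the gene did not pass after adjustment over all genes (log2 fold change 0.11, SE 0.05, 95% interval 0.01 to 0.21). SOAT1 is poor in G and C, and genes of its GC decile, the second from below, had a median log2 fold change of 0.15. With the GC and length correction its log2 fold change was 0.01 (SE 0.04).

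**Figure D3:**
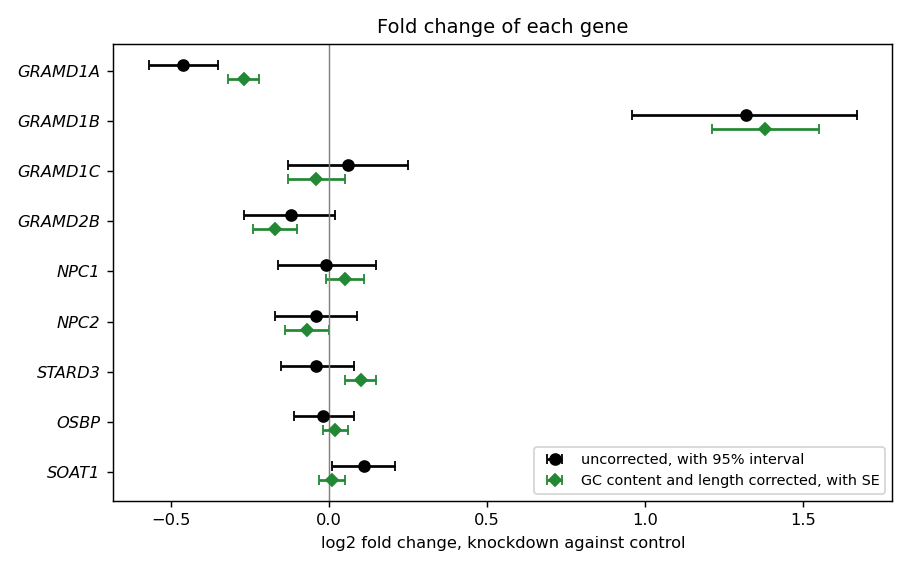
Log2 fold change of knockdown against control (horizontal axis) for each of the 9 genes, uncorrected with its 95% interval (black circles) and corrected for GC content and length with its SE (green diamonds). GRAMD1B at 1.32 and GRAMD1A at -0.46 lie away from 0, and GRAMD1A and SOAT1 move towards 0 with the correction, to -0.27 and 0.01.

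Ordered by RPKM in control, the genes ran from NPC2 (82.9) through OSBP (25.5), NPC1 (20.7), SOAT1 (18.4), GRAMD1A (10.6), STARD3 (7.80), GRAMD2B (4.32) and GRAMD1C (1.11) to GRAMD1B (0.0853). Library ranges of neighbours overlapped only between NPC1 and SOAT1 in control. In knockdown the order was the same, and GRAMD1A (7.74 RPKM) and STARD3 (7.61 RPKM) overlapped as well. Among all genes tested, NPC2 stood at percentile 97.8 of RPKM in control and GRAMD1B at 2.58, with 9.96 in knockdown. The order depends on the length used. Merged exons are 1.88 times as long as the longest transcript of NPC1 and 2.10 times that of GRAMD1A, but 1.01 times that of OSBP and 1.02 times that of SOAT1. Per length of the longest transcript, NPC1 (39.0) stood above OSBP (25.7) and GRAMD1A (22.3) above SOAT1 (18.8) in control, while NPC2 (159) stayed highest and GRAMD1B (0.165) lowest.

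Some of the 9 stood above relatives in these cells, by RPKM over merged exons in control. The relatives were chosen for this comparison after their values were seen. No level per longest transcript was computed for them, so small differences may depend on the length used. SOAT1 at 18.4 RPKM stood far above SOAT2, the other sterol esterifying enzyme, at 0.166 ± 0.0582 (SD, n = 3). NPC1 stood above NPC1L1, the intestinal sterol uptake protein, at 0.0459 ± 0.0064. GRAMD2B stood above GRAMD2A at 0.0967 ± 0.0369 and near GRAMD4 at 4.27 ± 0.047. OSBP stood above its relative OSBPL3 at 10.7 ± 0.142. STARD3, in contrast, stood below STARD3NL, which tethers endosomes but lacks the lipid-carrying START domain, at 12.8 ± 0.17. VAPA and VAPB, the endoplasmic reticulum proteins to which OSBP and STARD3 bind, had 13.8 ± 0.365 and 16.3 ± 0.828 RPKM.

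For 8 of the 9 genes RefSeq's promoter set holds at least 1 start (GRCh38.p14, 12 windows of 250 bases before to 50 after a start). The gene without an entry is GRAMD1B, so its promoter was not searched. The single window of GRAMD1C, at 113897250 to 113897549, lies at an internal start, so the upstream end of that gene was not searched. The 12 windows were searched on both strands for sites of regulators known to act on sterol and lysosomal genes, and for a direct repeat. The sterol regulatory element core TCACNCCAC, the full CLEAR palindrome of lysosomal genes and the direct repeat were in none of the 12. In that order they were in 1.13%, 0.353% and 0.0541% of all 35116 windows. The repeat as searched has a shorter spacing than the element bound by liver X receptors, and that element was not searched. The E-box CACGTG, which is also the centre of the CLEAR palindrome, was in 1 of the 12 and in 7.26% of all windows. That match is shown because it is the only one, upstream of an internal start of GRAMD2B on the plus strand, with the E-box in capitals. A match describes letters only, and an absent motif says only that these letters are not in the window.
GRAMD2B chr5:126465052-126465081: tgcaggaggccaCACGTGagcgtgtgtaca

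By the profile over the 6 libraries, the genes nearest to GRAMD1B among 12255 candidates with a mean log2 CPM of 1 or more were UCA1, LINC01293 and KIAA0040. Likeness was the root mean square difference of log2 CPM centred on each gene's mean, 0.186 for UCA1, 0.189 for LINC01293 and 0.197 for KIAA0040. UCA1, an abundant long noncoding RNA of carcinoma lines, went from 49.3 ± 2.02 to 128 ± 13.3 CPM (SD, n = 3 each). LINC01293, a noncoding transcript, went from 1.62 ± 0.306 to 3.35 ± 0.263 CPM and KIAA0040 from 3.05 ± 0.722 to 7.73 ± 0.988 CPM (n = 3 each). The likeness was chosen on the same contrast and is a description.

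The rest of the sterol system was counted in 5 lists of 102 genes in all, of which 96 were tested. Of these 29 rose and 32 fell, 63.5% against 37.2% of all genes, and the changes were small. The share over all genes depends on the low-count filter: at 1 CPM in 3 libraries 6055 of 13733 genes passed, and 63 list genes. With the GC and length offsets 20 rose and 19 fell, 40.6% against 29.7% of all genes. The lists were drawn up with earlier results of these data known, and the genes named from them are those of smallest p. Their adjusted p-values, taken over all genes tested, describe these genes and are no independent support. GC content, which goes with fold change here, differs between genes of a list, so each list's count is given with and without these offsets.

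Other OSBP-related and START domain proteins, the wider family of lipid carriers, had 7 of 18 up and 2 down. That was 50% against 37.2% of all genes, with a median log2 fold change of 0.09 (all genes -0.01). OSBPL8, which exchanges phosphatidylserine for phosphoinositides at the plasma membrane, rose 1.28-fold from 69.1 ± 4.05 to 88.1 ± 4.99 CPM (edgeR adjusted p = 2.6e-05). OSBPL11 rose 1.39-fold from 14.5 ± 1.91 to 20.1 ± 1.48 CPM (adjusted p = 0.00016) and OSBPL6 1.3-fold from 10.4 ± 1.2 to 13.5 ± 0.991 CPM (adjusted p = 0.002). Once corrected, 5 of this list rose and 0 fell, 27.8% against 29.7% of all genes, which is no more than the background, and OSBPL8 stood at a log2 fold change of 0.22 (0.35 before). Contact site tethers and PI4P enzymes, which include VAPA and VAPB, had 11 of 24 up and 4 down, 62.5% against 37.2% of all genes (median 0.13). After the correction 5 were up and 2 down, 29.2% against 29.7% of all genes. The uncorrected 15 became 8 without control library 2 and 8 without knockdown library 3. ACBD5, a tether of peroxisomes to the endoplasmic reticulum, rose 1.19-fold (55.0 ± 2.97 to 65.4 ± 0.0902 CPM, adjusted p = 0.00064), and VPS13A, a bridge-like lipid carrier, 1.17-fold (60.2 ± 1.47 to 70.6 ± 1.61 CPM, adjusted p = 0.00087). GRAMD4, another GRAM domain protein, fell 1.28-fold, from 20.9 ± 0.230 to 16.4 ± 0.989 CPM (adjusted p = 0.00034). The corrected log2 fold changes were 0.13 for VPS13A (0.23 before) and -0.23 for GRAMD4 (-0.35 before).

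Genes of lipoprotein uptake and lysosomal sterol handling, upstream of NPC1 and NPC2, had 3 of 15 up and 8 down (median -0.16). That was 73.3% against 37.2% of all genes. The HDL receptor SCARB1 fell 1.25-fold, from 62.7 ± 2.58 to 50 ± 1.06 CPM (adjusted p = 3.7e-05). TFE3, a transcription factor of lysosomal genes, fell 1.38-fold, from 291 ± 18.1 to 211 ± 4.81 CPM (adjusted p = 2.6e-07). After correction 3 rose and 5 fell, 53.3% against 29.7% of all genes, with a log2 fold change of -0.31 for TFE3 (-0.46 before). Without control library 2, 7 genes of this list passed.

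Genes of sterol ester storage and efflux, downstream of SOAT1, had 1 of 12 up and 6 down (median -0.27), 58.3% against 37.2% of all genes. With the correction 1 was up and 3 were down, 33.3% against 29.7% of all genes, which is near the background. NR1H3, the sterol-sensing liver X receptor alpha, fell 1.42-fold, from 24.2 ± 1.56 to 17.1 ± 0.560 CPM (adjusted p = 5.8e-06). PLIN3, a coat protein of lipid droplets, fell 1.26-fold, from 178 ± 8.18 to 141 ± 10.5 CPM (adjusted p = 3.6e-05). NCEH1, which hydrolyses cholesterol esters, rose 1.16-fold, from 151 ± 4.88 to 175 ± 2.23 CPM (adjusted p = 0.00065). Corrected, PLIN3 stood at a log2 fold change of -0.20 (-0.33 before) and NCEH1 at 0.13 (0.22 before). In cholesterol synthesis and its SREBP control, 7 of 27 rose and 12 fell (median -0.11), 70.4% against 37.2% of all genes. With the correction 6 rose and 9 fell, 55.6% against 29.7% of all genes. DHCR7, which makes cholesterol in the last step of a synthesis branch, fell 1.41-fold (126 ± 5.32 to 89.1 ± 3.61 CPM, adjusted p = 7.2e-08), MVD of the mevalonate pathway 1.42-fold (25.2 ± 2.06 to 17.7 ± 0.185 CPM, adjusted p = 5.7e-06) and the regulator SREBF1 1.41-fold (177 ± 13.4 to 126 ± 10.2 CPM, adjusted p = 5.5e-06). Corrected log2 fold changes were -0.30 for MVD (-0.51 before) and -0.30 for SREBF1 (-0.49 before).

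**Figure D4:**
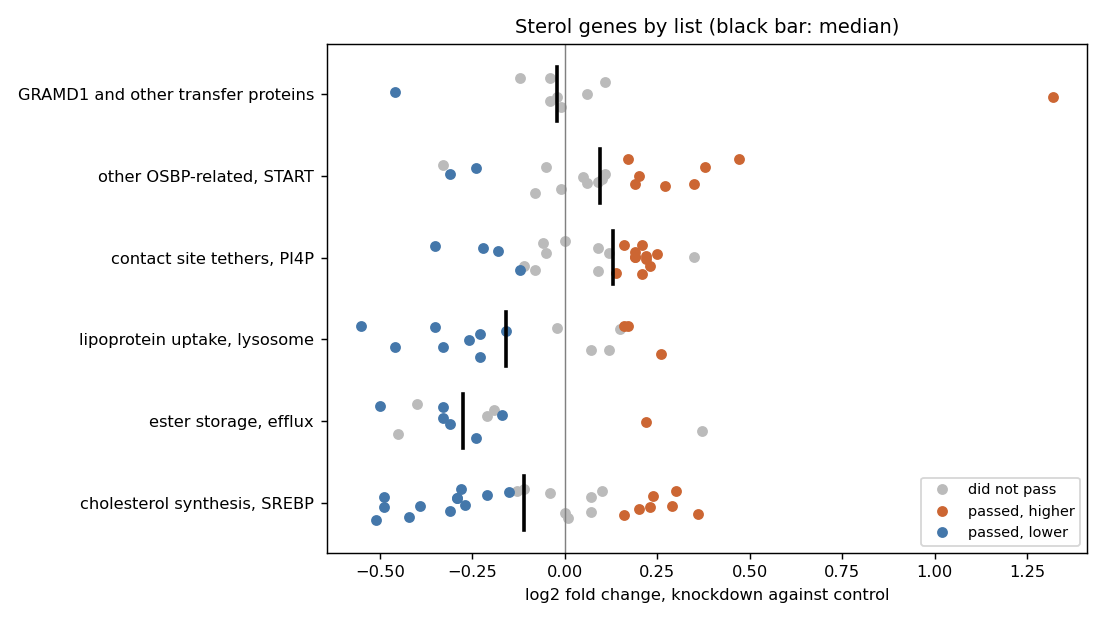
Log2 fold change of knockdown against control (horizontal axis) for the 9 transfer genes and for the tested genes of the 5 other lists, 1 point a gene, scattered vertically for legibility, with each list's median as a black bar. Orange and blue points passed the test upward and downward, and grey points did not; most transfer genes lie near 0 with GRAMD1B alone on the far right.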

How the data were processed

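The authors deposited a single table of raw whole-number fragment counts, a row for each gene symbol. Per the file headers, featureCounts 1.6.4 counted read pairs on exons of GENCODE release 32 (patches and alternate sequences included) on GRCh38. The submitters' processing notes list Trim Galore 0.6.4 and STAR 2.7.1a without their roles. The header shows no option for strand, multi-mapping or overlapping features, so at the defaults strand was ignored and ambiguous fragments were not counted. A further deposited column gives merged exon length in bases, and coordinates came from the same table.

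Control columns extend the title of control sample 1, which shows that they are controls but not which sample each is; numbers follow the table's order as names only. Genes passing filterByExpr (16633) got TMM factors and a two-sided quasi-likelihood test in edgeR 4.0.16 (R 4.3.3) with group as sole term, and p-values were Benjamini-Hochberg adjusted over these genes at a threshold of 0.05. Standard errors (SE) of log2 fold changes are the absolute change divided by the square root of F. The common biological coefficient of variation was 4.81%. GC content and longest transcripts came from GENCODE release 29 (56492 symbols matched), and the correction uses natural splines with 5 degrees of freedom per library for GC content and length as offsets (16374 genes). Tests and intervals of 95% rest on the spread between 3 libraries a group, which for the controls may be repeats of 1 sample. Floors of 3 counts cover counting error only. The test was run on simulated data beforehand. DESeq2 1.42.0, other scalings and filters, and leaving out each library were alternatives.

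The 9 genes and all lists were chosen with earlier results of these data known. The text names the 9 genes, from each list at most 3 genes that passed, those of smallest p, the 3 genes nearest to GRAMD1B, VASP as a check of the labels, and the relatives marked as chosen later. Some items that the lists or markers hold are not reported here.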

Additional observations from a re-analysis of the deposited data

How the results depend on the processing

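GRAMD1A and GRAMD1B passed the test with the same sign in all 12 alternatives, with log2 fold changes of 1.24 to 1.48 for GRAMD1B. Between 2 and 4 of the 9 genes passed when a library was left out. The 4 came without control library 3, which added NPC2 and SOAT1. SOAT1 also passed with library totals alone and with no low-count filter, for 3 genes each. The correction for GC content and length moved the log2 fold changes of GRAMD1A to -0.27, STARD3 to 0.10 and SOAT1 to 0.01. With it 39 of the genes in the 5 lists passed in place of 61, with 5 other OSBP-related and START genes, 7 contact site and PI4P genes and 4 ester storage and efflux genes. Leaving out 1 library gave 8 to 16 contact site and PI4P genes, with 8 without control library 2 and 8 without knockdown library 3, and 7 to 12 lipoprotein uptake and lysosomal genes, with 7 without control library 2. Over all genes 4481 to 6399 passed when a library was left out. Of the calls over all genes 50.9% were increases, and 59.3% with the GC and length correction. The increase in the GRAMD1B share of the GRAMD1 sum was 1.52 to 1.71 percentage points over 8 alternatives. Those that only rescale libraries could not move a share taken within a library, so the range comes from leaving libraries out. The share was not computed with the GC and length correction. The 18 genes that the naming rule took from the lists and as nearest to GRAMD1B kept direction and call in all 12 alternatives, 216 values in all. They were picked for small p or for likeness to GRAMD1B in these same data, so this is no independent support. No paired analysis was possible because the control columns do not carry the replicate numbers of the labels. GRAMD1B had 33 to 45 counts in control, so counting error is part of the spread of its fold.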
